A study of Mus musculus with 12 samples.

Results

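Mouse Hox genes were followed across their 4 genomic clusters in gastruloids, aggregates of mouse embryonic stem cells that break symmetry and elongate in culture. Members were taken by gene name, with no measured value in the rule: 38 Hox genes were read, 10 in the HoxA cluster, 10 in HoxB, 9 in HoxC and 9 in HoxD, of 38911 genes listed in the deposited tables. At least 1 count was recorded for 35 of the 38, and 28 had enough counts to be tested. Bulk RNA sequencing was carried out on 12 libraries, 3 in each of 4 groups, with gastruloids of 1 plate pooled for each library. The stem cells were of the E14TG2a line, kept in 2iLIF medium (LIF with inhibitors that hold cells in naive pluripotency), and were taken at passages 13, 15 and 16, each of which gave 1 library to every group. All 12 cultures were grown in N2B27 medium and received the Wnt agonist CHIR99021 on day 2, then one of the 4 treatments from day 3 until harvest on day 4. Those treatments were no glucose (0× glucose, 0 mM), the glucose of the standard medium (1× glucose, 21.25 mM), excess glucose (3× glucose, 63.75 mM), or 5 mM 2-deoxy-D-glucose (2-DG), a glucose analog that inhibits glycolysis and also competes with mannose in protein glycosylation, in 1× glucose. The comparisons asked how the Hox genes responded to 2-DG, to glucose removal and to excess glucose, and which action of 2-DG the values reflect was not tested.

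Hox genes encode homeodomain transcription factors that give cells their position along the head-to-tail axis. They sit in 4 clusters that arose by duplication of 1 ancestral cluster, so genes at corresponding places belong to the same paralog group, numbered from the 3′ to the 5′ end. In the embryo, genes of low-numbered groups come on first and reach furthest forward, into the hindbrain, whereas high-numbered groups come on later and are restricted to the trunk and tail. Wnt and Fgf signals and the Cdx factors promote the trunk genes in the growing tail end, retinoic acid acts on the 3′ genes, and Polycomb proteins hold the inactive part of each cluster silent.

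Libraries held between 31902471 and 45956080 estimated counts. Levels are given as CPM (counts scaled to library size with TMM factors), and 3 values in a row are those of passages 13, 15 and 16. Log2 fold changes carry their standard error (SE) and come from edgeR's quasi-likelihood test, with p-values adjusted (Benjamini-Hochberg) across the 16966 tested genes. A change was called at an adjusted p under 0.05. In pooled gastruloids, fewer cells of a type and less RNA per cell cannot be told apart. The study calls the 3 libraries of a group biological replicates and the labels tell them apart by passage. In the fit by group alone, p-values thus measure the spread between passages of 1 cell line. Where passage was fitted as well, they measure the spread left after group and passage.

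Of the 28 Hox genes tested, 14 were lower in 2-DG-treated gastruloids than in 1× glucose and 0 were higher. Over all genes tested, 17.6% were called in that comparison, 8.51% lower and 9.12% higher. At an unadjusted p under 0.05 there were 19 Hox genes, 1 of them higher, and DESeq2 called 17, with 0 higher. All 3 libraries of one group lay outside the range of the other for 19 of the 28, against 35.4% of all genes tested. Within single passages, 23 of the 28 were lower in the 2-DG library at each of the 3 passages, against 30.7% of all genes, and 2 (*Hoxb2* and *Hoxb5*) were higher at each. Because the passages were shared by the groups, the comparison was also fitted with passage as a replicate block, and 21 Hox genes were then lower and 2 higher, where 41.3% of all genes were called, 20.2% lower and 21.1% higher.

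Paralog groups 6 to 10 held 9 of those 14 genes among 13 tested, with a median log2 fold change of −1.70, and 13 of 13 were lower with the replicate block. Groups 1 to 5 held the other 5 among 14 tested, with a median of −0.31, and had 8 lower and 2 higher with the block. By cluster, 5 of 8 tested HoxA genes were called lower, 3 of 9 HoxB genes, 3 of 5 HoxC genes and 3 of 6 HoxD genes. The cluster medians of the log2 fold change were −0.89 in HoxA, −0.32 in HoxB, −2.10 in HoxC and −0.36 in HoxD. With only each gene's most abundant transcript counted, 7 of the 14 calls were kept, those of *Hoxa6*, *Hoxa9*, *Hoxa10*, *Hoxb1*, *Hoxb6*, *Hoxd4* and *Hoxd9*. Summed over the 38 genes, the Hox level was 2489, 1925 and 1883 CPM in 1× glucose and 1489, 1357 and 1416 CPM with 2-DG. Each 2-DG library was below every 1× glucose library in its Hox total.

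**Figure D1:**
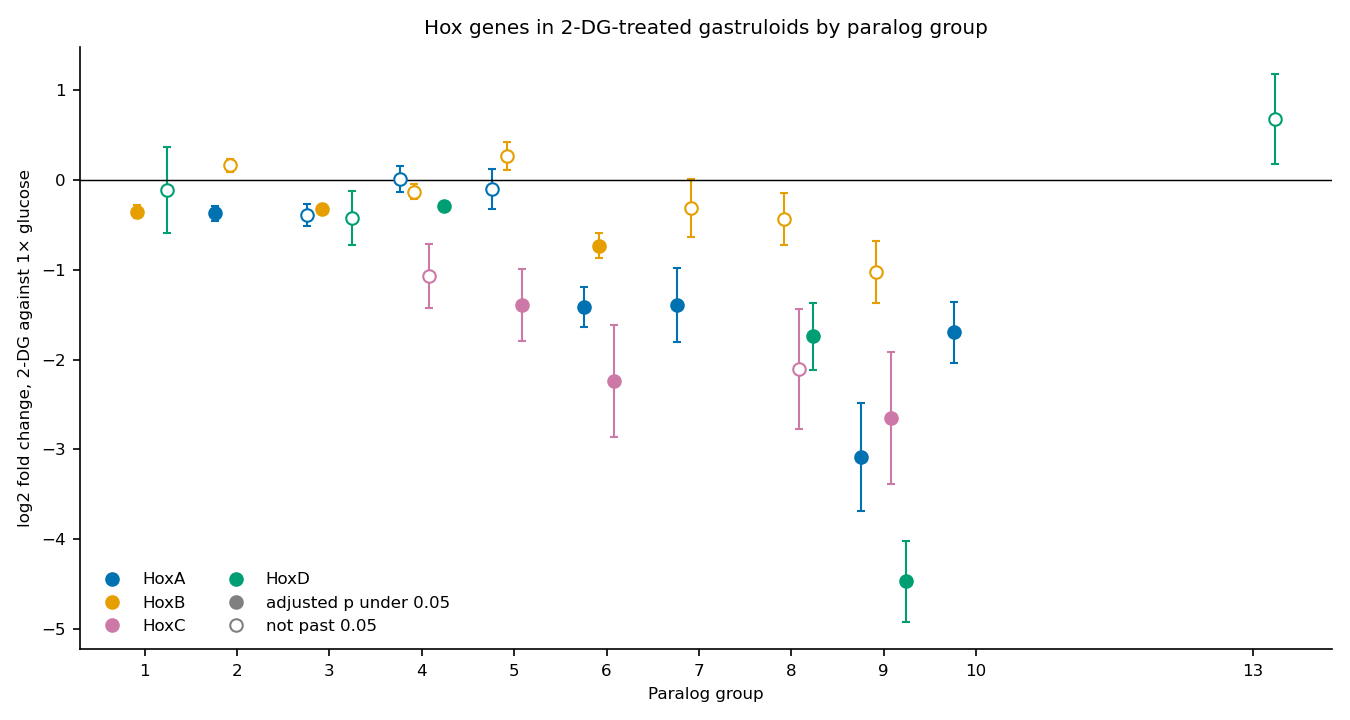
Log2 fold change of the 28 tested Hox genes in 2-DG-treated against 1× glucose gastruloids (y axis) by paralog group (x axis), coloured by cluster, with bars of 1 SE and filled points for an adjusted p under 0.05. Outside HoxC, genes of groups 1 to 5 lie between −0.42 and 0.27, and *Hoxd9* and *Hoxa9* of group 9 lie lowest, at −4.47 and −3.08.

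The HoxA members span chr6:52162417-52260880 on the minus strand (mouse build GRCm38.p6, as are all positions here), 98.46 kb with 10 genes, 8 of them tested. In 1× glucose the highest level per kilobase of exon was that of *Hoxa3*, at 45.02 CPM per kb, and the lowest of the tested genes were *Hoxa9* at 4.85 and *Hoxa10* at 0.203 CPM per kb. Ranges over the libraries overlapped between neighbours from *Hoxa5* (18.1) through *Hoxa2* (17.9) and *Hoxa7* (13.5) to *Hoxa6* (12.7), and between *Hoxa4* (8.44) and *Hoxa9*.

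*Hoxa9* (chr6:52223097-52227370, minus strand), which acts in the trunk and in blood progenitors, was at 26.9, 10.6 and 9.51 CPM in 1× glucose and at 1.44, 1.83 and 2.26 CPM with 2-DG. Its means were 15.7 ± 9.77 CPM and 1.84 ± 0.415 CPM (SD, n = 3), a log2 fold change of −3.08 (SE 0.60; edgeR adjusted p = 0.00661). Every 2-DG library lay below every 1× glucose library, and the fall was deepest at passage 13, by 4.23 on the log2 scale, against 2.53 and 2.07 at passages 15 and 16. Without the passage 13 library of 1× glucose, the log2 fold change of *Hoxa9* was −2.44 (edgeR adjusted p = 0.0184). *Hoxa7*, a trunk gene, was at 59.9, 26.2 and 26.9 CPM in 1× glucose and at 14.8, 12.7 and 15.6 CPM with 2-DG. Its log2 fold change was −1.39 (SE 0.41; edgeR adjusted p = 0.041, 0.000632 with the replicate block). The high 1× glucose library was that of passage 13. Without that library the log2 fold change of *Hoxa7* was −0.88 with an adjusted p of 0.141, and without any 1 of the 2-DG libraries of passages 13, 15 and 16 the adjusted p was 0.099, 0.128 and 0.0929. Leaving out the 3× glucose library of passage 15 or 16, which enters through the shared spread, gave 0.0556 and 0.0523 for *Hoxa7*.

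*Hoxa6*, of the group that acts at the neck-to-trunk transition, was at 12.8, 9.997 and 10.6 CPM in 1× glucose and at 3.92, 3.71 and 4.88 CPM with 2-DG, a log2 fold change of −1.42 (SE 0.22; edgeR adjusted p = 0.00232). The libraries of both groups were far apart at each passage. *Hoxa10*, of the group that suppresses ribs in the lumbar region, was the 5′-most HoxA gene tested, at 0.659, 0.605 and 0.648 CPM in 1× glucose and at 0.264, 0.136 and 0.187 CPM with 2-DG, the latter on 9, 5 and 7 counts. It also fell by 1.70 on the log2 scale (SE 0.34; edgeR adjusted p = 0.00787). *Hoxa2*, which sets the identity of the second branchial arch, was lower by a small margin, with means of 31.9 ± 1.54 and 24.6 ± 1.94 CPM (SD, n = 3) and a log2 fold change of −0.37 (SE 0.085; edgeR adjusted p = 0.0141, 0.000334 with the replicate block). Without the block, that call was lost when the 2-DG library of passage 13 or 15 was left out, at adjusted p-values of 0.0503 and 0.0553.

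The other 3 tested HoxA genes did not pass the test. *Hoxa3*, needed in the pharyngeal region, was at 119, 114 and 126 CPM in 1× glucose and at 86.9, 78.6 and 109 CPM with 2-DG, so the groups did not overlap, with a log2 fold change of −0.39 (SE 0.12; edgeR adjusted p = 0.0527, 0.00385 with the replicate block and 0.0159 without the 2-DG library of passage 16). *Hoxa4* had means of 13.5 ± 0.574 and 13.6 ± 2.44 CPM (SD, n = 3), with a log2 fold change of 0.014 (SE 0.14; edgeR adjusted p = 0.966). *Hoxa5*, a gene of the neck and lung, had means of 34.0 ± 7.45 and 31.7 ± 5.70 CPM (SD, n = 3), with a log2 fold change of −0.098 (edgeR adjusted p = 0.817). *Hoxa4* and *Hoxa5*, which lie inside the RefSeq span of *Hoxa3*, thus had levels in 2-DG-treated gastruloids that overlapped those of 1× glucose. The nearest called genes were *Hoxa2* on one side and *Hoxa6* on the other.

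The HoxB members span chr11:96194316-96368254, 173.9 kb with 10 genes, 9 of them tested, and their summed level was 1204 ± 196.7 CPM in 1× glucose and 896.5 ± 87.8 CPM with 2-DG (SD, n = 3). Per kilobase the order in 1× glucose did not follow the chromosome: *Hoxb9*, the 5′-most gene tested, came first at 121 CPM per kb, followed by *Hoxb1* at the 3′ end (86.0) and *Hoxb3* (66.0). Then came *Hoxb2* (61.6), *Hoxb8* (54.5) and *Hoxb7* (54.1), whose ranges overlapped, and *Hoxb4* (29.6), *Hoxb6* (24.2) and *Hoxb5* (10.8 CPM per kb). With 2-DG the highest means were those of *Hoxb2* (69.1 ± 2.64), *Hoxb1* (67.4 ± 2.63) and *Hoxb9* (59.2 ± 18.1 CPM per kb; SD, n = 3). The ranges of these genes overlapped, so their order with 2-DG is not resolved.

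*Hoxb9*, which acts in the thoracic region, was at 439, 257 and 236 CPM in 1× glucose and at 206, 118 and 134 CPM with 2-DG. Its means were 310.5 ± 112 and 152.5 ± 46.7 CPM (SD, n = 3), a log2 fold change of −1.03 (SE 0.35; edgeR adjusted p = 0.0665, 5.77e-06 with the replicate block). The 2-DG libraries were the lower ones at every passage, and no 2-DG library reached the lowest 1× glucose library. *Hoxb6* was at 54.9, 41.6 and 46.2 CPM in 1× glucose and at 31.2, 26.6 and 28.2 CPM with 2-DG, a log2 fold change of −0.73 (SE 0.14; edgeR adjusted p = 0.00624). Between them on the chromosome, *Hoxb8* had means of 144 ± 46.6 and 106 ± 26.0 CPM (SD, n = 3), a log2 fold change of −0.43 (edgeR adjusted p = 0.351, 0.000289 with the replicate block), and *Hoxb7* had means of 69.9 ± 23.7 and 56.2 ± 16.1 CPM (SD, n = 3), a log2 fold change of −0.31 (edgeR adjusted p = 0.566, 0.00488 with the block). For both of these genes the groups overlapped, since their passage 13 libraries stood above those of passages 15 and 16 in either group.

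At the 3′ end, *Hoxb1*, which sets the identity of rhombomere 4 in the hindbrain, was at 175, 174 and 189 CPM in 1× glucose and at 137, 138 and 147 CPM with 2-DG, a log2 fold change of −0.35 (SE 0.071; edgeR adjusted p = 0.00799). *Hoxb3*, another hindbrain gene, was at 264, 252 and 255 CPM in 1× glucose and at 205, 204 and 207 CPM with 2-DG, a log2 fold change of −0.32 (SE 0.037; edgeR adjusted p = 0.000477). In both genes the 3 libraries of a group lay close together and the groups were apart. *Hoxb2*, which lies between them, had the higher mean with 2-DG: its means were 100.2 ± 5.41 CPM in 1× glucose and 112 ± 4.30 CPM with 2-DG (SD, n = 3), a log2 fold change of 0.17 (SE 0.070; edgeR adjusted p = 0.133, 0.00597 with the replicate block), and its groups did not overlap. *Hoxb5* had means of 20.5 ± 3.43 and 24.8 ± 3.34 CPM (SD, n = 3), a log2 fold change of 0.27 (edgeR adjusted p = 0.272, 0.00723 with the block). *Hoxb4* had means of 76.0 ± 6.03 and 69.5 ± 3.12 CPM (SD, n = 3), with a log2 fold change of −0.13 (edgeR adjusted p = 0.343).

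**Figure D2:**
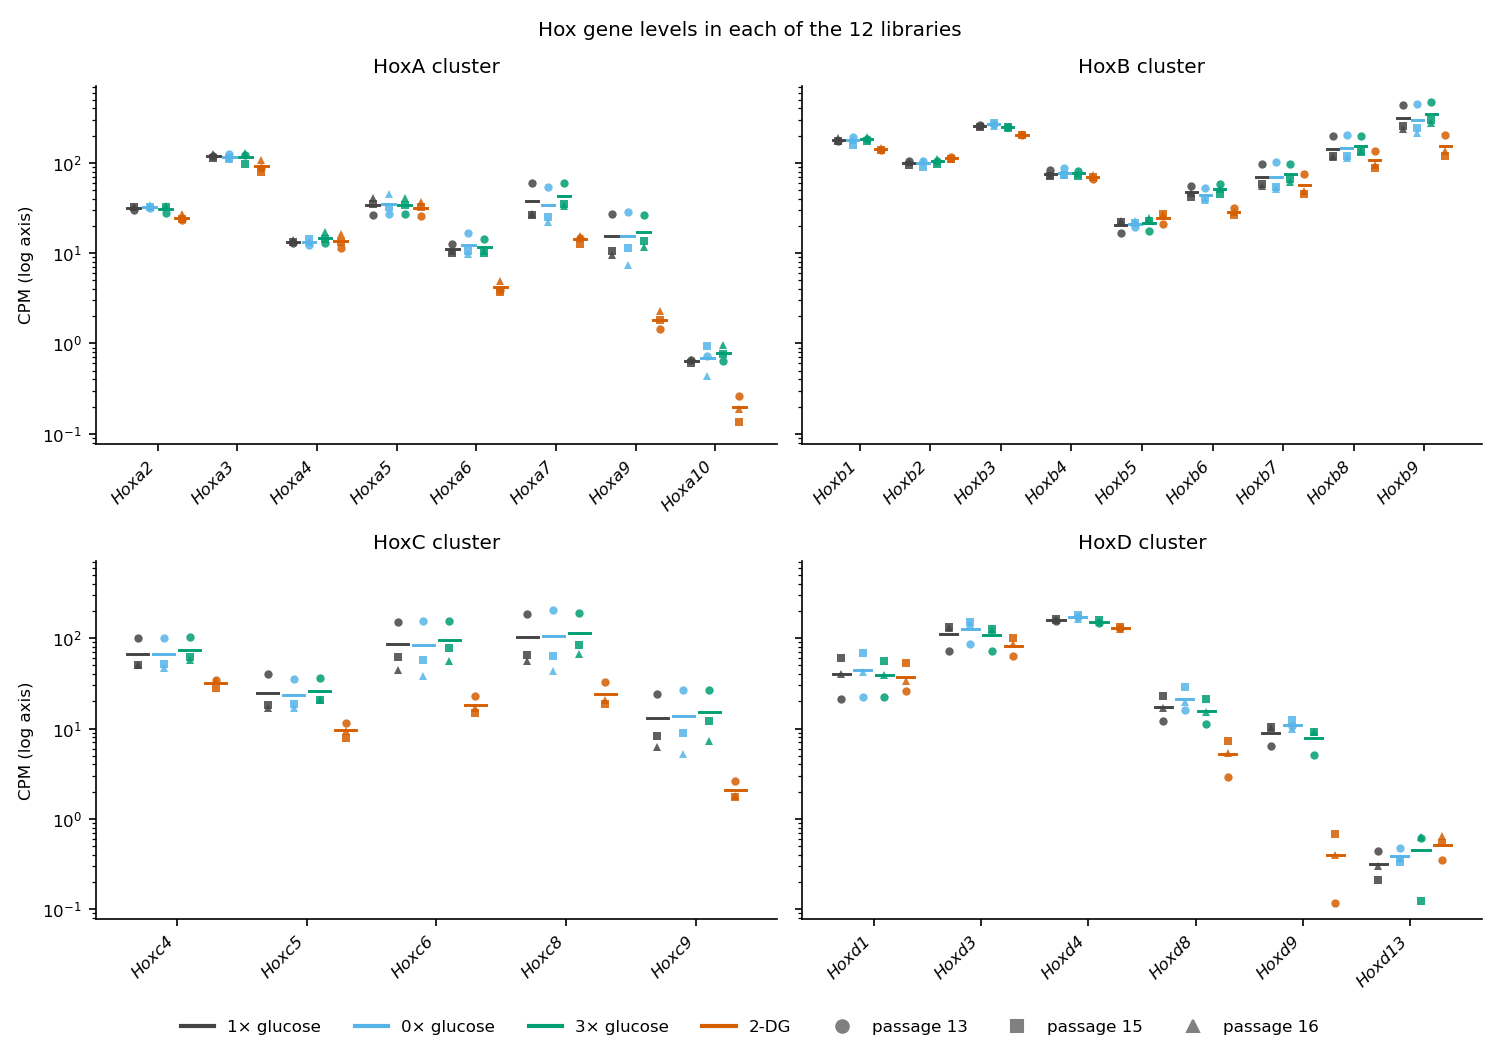
Level in CPM (log axis) of each tested Hox gene, 1 panel per cluster with genes in order of paralog group on the x axis, 1 point per library, coloured by treatment and shaped by passage. The 2-DG points of *Hoxa9*, *Hoxc9*, *Hoxd8* and *Hoxd9* lie below all points of the other 3 treatments, whereas those of *Hoxa4*, *Hoxa5* and *Hoxd1* overlap them in range.

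The HoxC members span chr15:102921131-103036856, 115.7 kb with 9 genes, 5 of them tested, and their summed level was 293 ± 182 CPM in 1× glucose and 85.8 ± 16.7 CPM with 2-DG (SD, n = 3). In every tested HoxC gene the 2-DG libraries lay below all 1× glucose libraries, and the passage 13 library was the highest of its group. *Hoxc8*, of the group that shapes the thoracic skeleton, was at 185.5, 65.8 and 55.6 CPM in 1× glucose and at 32.4, 18.6 and 20.5 CPM with 2-DG, a log2 fold change of −2.10 (SE 0.67; edgeR adjusted p = 0.0534, 6.33e-05 with the replicate block). *Hoxc6* was at 152, 61.2 and 43.9 CPM in 1× glucose and at 23.0, 14.8 and 16.7 CPM with 2-DG, a log2 fold change of −2.24 (SE 0.62; edgeR adjusted p = 0.032). The 2 genes had near-equal levels per kilobase in 1× glucose, 54.8 for *Hoxc8* and 54.2 for *Hoxc6*, and their ranges overlapped. *Hoxc4* followed at 26.1, *Hoxc5* at 8.52 and *Hoxc9* at 5.33 CPM per kb, the last 2 with overlapping ranges.

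*Hoxc9*, which in the spinal cord specifies thoracic motor neurons, was at 24.2, 8.37 and 6.27 CPM in 1× glucose and at 2.64, 1.74 and 1.81 CPM with 2-DG. Its log2 fold change was −2.65 (SE 0.73; edgeR adjusted p = 0.0317). *Hoxc5* was at 39.7, 18.2 and 16.9 CPM in 1× glucose and at 11.5, 7.76 and 9.27 CPM with 2-DG, a log2 fold change of −1.39 (SE 0.40; edgeR adjusted p = 0.0358). *Hoxc4*, at the 3′ end of this cluster, was at 101, 50.0 and 50.6 CPM in 1× glucose and at 34.3, 28.3 and 33.3 CPM with 2-DG, a log2 fold change of −1.07 (SE 0.36; edgeR adjusted p = 0.0624, 0.000567 with the replicate block). With the replicate block, edgeR's adjusted p was 4.86e-05 for *Hoxc9*, 4.71e-05 for *Hoxc6* and 5.45e-05 for *Hoxc5*. In the fit without the block, the HoxC calls depended on the passage 13 library of 1× glucose: without it the log2 fold changes were −1.82 for *Hoxc9*, −1.53 for *Hoxc6* and −0.88 for *Hoxc5*, at adjusted p-values of 0.106, 0.107 and 0.122, and that of *Hoxc8* was −1.35. They were also lost without any 1 of the 2-DG libraries of passages 13, 15 and 16, at 0.0717, 0.105 and 0.0969 for *Hoxc9*, 0.0675, 0.108 and 0.0954 for *Hoxc6*, and 0.0642, 0.122 and 0.0981 for *Hoxc5*, and for *Hoxc6* without the 1× glucose library of passage 15, at 0.051. With the 0× glucose library of passage 13 left out of the shared estimate of spread, *Hoxc8* and *Hoxc4* passed at 0.0237 and 0.0345, as did *Hoxb9* at 0.0383.

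The HoxD members span chr2:74668225-74765142, 96.92 kb with 9 genes, 6 of them tested. Per kilobase, the order of levels in 1× glucose ran from *Hoxd4* (62.2) through *Hoxd3* (28.4), *Hoxd1* (21.7), *Hoxd8* (6.29) and *Hoxd9* (4.21) to *Hoxd13* (0.128 CPM per kb), with overlapping ranges between *Hoxd3* and *Hoxd1* and between *Hoxd8* and *Hoxd9*. *Hoxd9* (chr2:74697763-74700208, plus strand), a gene of the trunk and limb, showed the largest change of the 28 tested Hox genes: it was at 6.41, 10.5 and 10.1 CPM in 1× glucose and at 0.117, 0.681 and 0.400 CPM with 2-DG, the latter resting on 4, 25 and 15 counts. Its log2 fold change was −4.47 (SE 0.45; edgeR adjusted p = 0.000219), and within passages it fell by 5.77, 3.94 and 4.66 on the log2 scale. Without the 2-DG library of passage 15 the fitted log2 fold change of *Hoxd9* was −5.08. *Hoxd8*, its 3′ neighbour, was at 12.2, 22.9 and 16.7 CPM in 1× glucose and at 2.87, 7.27 and 5.33 CPM with 2-DG, a log2 fold change of −1.74 (SE 0.37; edgeR adjusted p = 0.0103). Both genes had non-overlapping groups, and in both the passage 13 library was the lowest of its group, unlike the genes of groups 6 to 9 in the other 3 clusters in 1× glucose.

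*Hoxd4*, a hindbrain and neck gene, was at 154, 164.5 and 159.5 CPM in 1× glucose and at 129.8, 132.5 and 127.5 CPM with 2-DG, a small but regular difference with a log2 fold change of −0.29 (SE 0.05; edgeR adjusted p = 0.00404). *Hoxd3*, which acts in the first neck vertebra, was at 72.4, 133 and 128 CPM in 1× glucose and at 62.9, 99.6 and 86.3 CPM with 2-DG, a log2 fold change of −0.42 (SE 0.30; edgeR adjusted p = 0.382, 0.00033 with the replicate block). *Hoxd1* was at 21.0, 59.9 and 40.2 CPM in 1× glucose and at 26.3, 52.9 and 33.3 CPM with 2-DG, so the spread between passages exceeded the difference between groups (log2 fold change −0.11, SE 0.48, edgeR adjusted p = 0.915). *Hoxd13*, the 5′-most HoxD gene, which patterns digits and the hind end of the body, had means of 0.317 ± 0.115 and 0.512 ± 0.147 CPM (SD, n = 3), a log2 fold change of 0.68 (SE 0.50; edgeR adjusted p = 0.401). In the HoxD cluster, then, 2 adjacent genes of groups 8 and 9 fell by 1.74 and 4.47 on the log2 scale, and *Hoxd4* by 0.29.

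The remaining 10 Hox genes, all of groups 10 to 13, had too few counts to be tested. *Hoxc11*, *Hoxc12* and *Hoxd12* had 0 counts in all 12 libraries, which allows up to 3 counts in each. The highest count in any library was 12 for *Hoxb13*, which limits tail growth, 10 for *Hoxc10*, 9 for *Hoxc13*, 7 for *Hoxa11*, 5 for *Hoxa13*, 3 for *Hoxd10* and 2 for *Hoxd11*. Differences between groups were not detectable at this depth for these genes. Of groups 10 to 13, then, only *Hoxa10* and *Hoxd13* passed the filter on low counts. The summed level of all 16 genes of groups 9 to 13 was 349.6 ± 129 CPM in 1× glucose and 158 ± 46.6 CPM with 2-DG (SD, n = 3).

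Paralog group 9 is present in all 4 clusters and held the largest change within each. The 4 genes started from levels per kilobase of 121 for *Hoxb9*, 5.33 for *Hoxc9*, 4.85 for *Hoxa9* and 4.21 for *Hoxd9* in 1× glucose. With 2-DG, *Hoxb9* was at 49.1% of its 1× glucose level by the fitted fold change, *Hoxc9* at 15.9%, *Hoxa9* at 11.8% and *Hoxd9* at 4.52%. In 1× glucose, *Hoxa9*, *Hoxb9* and *Hoxc9* were each highest at passage 13, and *Hoxd9* was lowest there. With 2-DG, *Hoxa9* at passage 13 was the lowest of its 3 libraries, while *Hoxb9* and *Hoxc9* were still highest at passage 13.

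**Figure D3:**
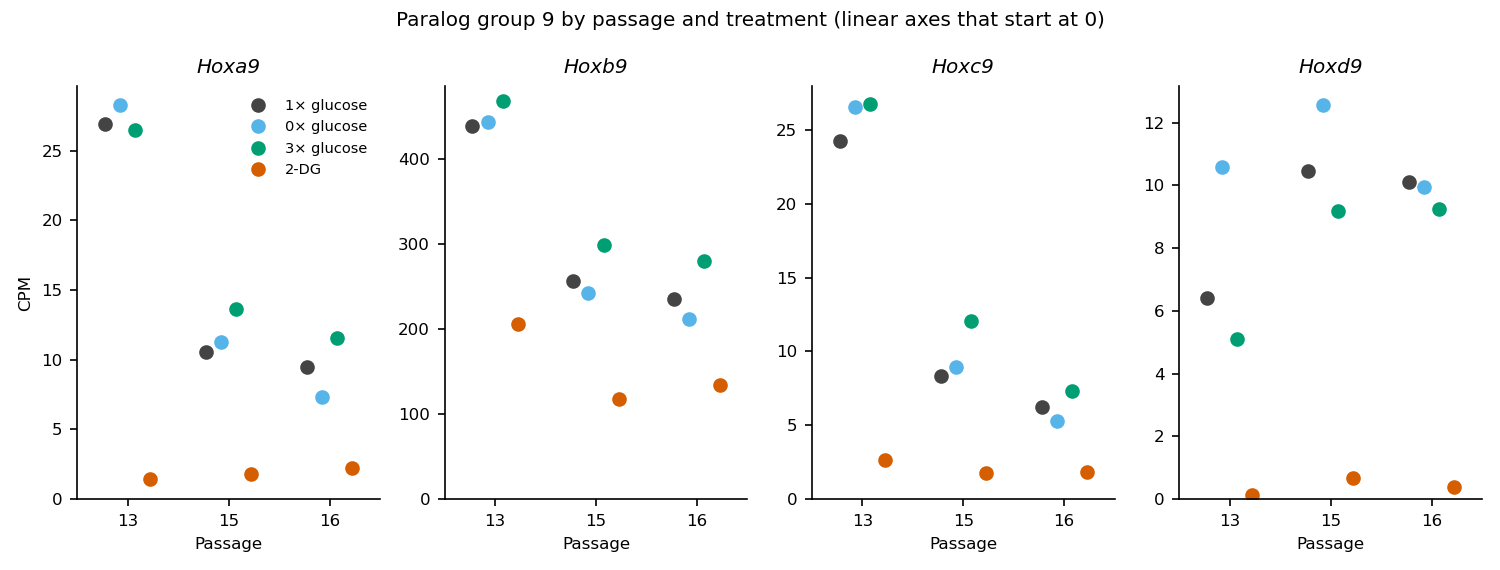
CPM (linear axes from 0) of *Hoxa9*, *Hoxb9*, *Hoxc9* and *Hoxd9*, 1 panel each, by passage on the x axis, with 1 point per library coloured by treatment. At every passage the 2-DG point is the lowest of the 4, and in *Hoxa9*, *Hoxb9* and *Hoxc9* the other 3 treatments stand higher at passage 13 than at 15 and 16.

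Promoters of *Hoxd9* and *Hoxa9* are shown because each had the largest change within its cluster, and those of *Hoxa7* and *Hoxb1* because they held a searched motif, a choice made after the matches were seen. Except for *Hoxb1*, sequences are the 250 bases directly before the RefSeq gene start (GRCm38.p6). All are on the gene's strand, and capitals mark motif matches. The 250 bases of *Hoxb1* end at 96365757, past the 96365746 start of its gene span. Distances are counted back from the end of each window. RefSeq promoters were matched for 22 of the 38 genes, as 24 promoters, with *Hoxb9* and *Hoxc9* named only. *Hoxd9* lies on the plus strand (chr2:74697513-74697762, GC content 65.2%), *Hoxa9* on the minus strand (chr6:52227371-52227620, 49.6%), *Hoxa7* on the minus strand (chr6:52218574-52218823, 54.8%) and *Hoxb1* on the plus strand (chr11:96365508-96365757, 59.2%).
Hoxd9: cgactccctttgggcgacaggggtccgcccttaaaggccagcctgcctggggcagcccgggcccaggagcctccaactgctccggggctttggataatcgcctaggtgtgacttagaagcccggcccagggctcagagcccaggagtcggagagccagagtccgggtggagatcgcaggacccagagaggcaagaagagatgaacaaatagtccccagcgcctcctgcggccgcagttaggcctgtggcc
Hoxa9: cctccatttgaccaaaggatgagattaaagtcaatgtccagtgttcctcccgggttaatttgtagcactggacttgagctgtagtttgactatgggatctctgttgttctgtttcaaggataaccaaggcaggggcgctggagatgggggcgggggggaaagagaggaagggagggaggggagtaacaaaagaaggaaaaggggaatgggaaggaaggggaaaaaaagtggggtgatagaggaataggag
Hoxa7: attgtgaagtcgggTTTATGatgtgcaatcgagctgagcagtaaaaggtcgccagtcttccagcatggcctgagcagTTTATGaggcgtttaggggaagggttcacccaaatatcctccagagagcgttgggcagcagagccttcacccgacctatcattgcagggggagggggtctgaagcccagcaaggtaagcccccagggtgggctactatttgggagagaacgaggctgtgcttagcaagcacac
Hoxb1: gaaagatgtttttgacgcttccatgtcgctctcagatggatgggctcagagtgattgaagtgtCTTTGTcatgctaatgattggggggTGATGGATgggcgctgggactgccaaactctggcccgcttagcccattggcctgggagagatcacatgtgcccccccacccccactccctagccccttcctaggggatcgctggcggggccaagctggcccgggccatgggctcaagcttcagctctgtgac
The Cdx motif TTTATG, searched on both strands like the rest, occurred before *Hoxa7* at 236 and 173 bases before the start. It was in 5 of the 24 Hox promoters (20.8%), those of *Hoxa7*, *Hoxb8*, *Hoxd3*, *Hoxd4* and *Hoxd11*, and in 10.8% of all 32851 promoters. The Hox and Pbx motif TGATNNAT occurred before *Hoxb1*, at 162 bases, and in 4 of the 24 (16.7%, against 7.68% of all). The Tcf and Lef motif CTTTGT was also there, at 187 bases, and was in 5 of the 24 (20.8%, against 16.5%). The retinoic acid receptor half-site AGGTCA was in 6 of the 24 (25%, against 14%), those of *Hoxb4*, *Hoxc4*, *Hoxd3*, *Hoxd4*, *Hoxd8* and *Hoxd10*. The matches in capitals do not overlap each other, and none of the 4 motifs was in the *Hoxa9* or *Hoxd9* window.

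Against 0× glucose in place of 1× glucose, 14 Hox genes were again lower with 2-DG and 0 higher, where 9.04% of all genes were lower and 9.86% higher. An unadjusted p under 0.05 gave 19 Hox genes, 1 of them higher, DESeq2 gave 17 with 0 higher, and 20 genes had non-overlapping groups, against 37.9% of all genes. With the replicate block 21 were lower and 2 higher, against 21.5% of all genes lower and 21.5% higher. Both comparisons use the same 2-DG libraries, so their values are given side by side only. *Hoxc8* passed here, at a log2 fold change of −2.14 (edgeR adjusted p = 0.0486) beside −2.10 against 1× glucose, and *Hoxa7* did not, at −1.24 (edgeR adjusted p = 0.0596, 0.0014 with the block) beside −1.39. The other genes gained with the block were *Hoxa3*, *Hoxb2*, *Hoxb5*, *Hoxb7*, *Hoxb8*, *Hoxb9*, *Hoxc4* and *Hoxd3*, as against 1× glucose. With the block, edgeR's adjusted p for *Hoxc5*, *Hoxc6*, *Hoxc8* and *Hoxc9* lay between 4.19e-05 and 6.72e-05. In the fit without the block, the calls of these 4 genes were lost here without the 0× glucose library of passage 13 or any 1 of the 2-DG libraries, those of *Hoxc5* and *Hoxc8* also without the 0× glucose library of passage 15, and that of *Hoxb6* without the 2-DG library of passage 15. Without the 0× glucose library of passage 13, the log2 fold changes were −2.33 for *Hoxa9*, −1.79 for *Hoxc9*, −1.39 for *Hoxc6* and −1.16 for *Hoxc8*, and without the 2-DG library of passage 15 that of *Hoxd9* was −5.37. *Hoxd9* was at −4.76 (edgeR adjusted p = 0.000147), *Hoxd8* at −2.05 (0.00435) and *Hoxd4* at −0.40 (0.000709), the latter beside −0.29 against 1× glucose.

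Glucose removal by itself left no Hox gene past the test. Of the 28, 0 were called between 0× and 1× glucose by edgeR's quasi-likelihood test, 0 had an unadjusted p under 0.05, 0 were called by DESeq2 and 0 had non-overlapping groups, where 0.0118% of all genes were called, 1.8% had an unadjusted p under 0.05 and 5.63% did not overlap. Log2 fold changes lay between −0.15 and 0.31, with SEs from 0.037 for *Hoxb3* to 0.67 for *Hoxc9*, which does not show that the levels were equal. *Hoxd9* was at 10.6, 12.6 and 9.95 CPM in 0× glucose, overlapping its 1× glucose values. *Hoxa9* was at 28.3, 11.3 and 7.30 CPM and *Hoxb9* at 444, 242.5 and 212 CPM, in either gene highest at passage 13, as in 1× glucose. The 6 tested HoxD genes had log2 fold changes above 0, between 0.11 and 0.31, none of them called.

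Excess glucose gave the same outcome for the test. Of the 28, 0 were called between 3× and 1× glucose by edgeR's quasi-likelihood test, against 0% of all genes, 0 had an unadjusted p under 0.05 (1.05% of all genes) and DESeq2 called 0. The groups did not overlap for 1 gene, against 4.47% of all genes: *Hoxb3*, at 252, 249 and 246 CPM in 3× glucose beside 264, 252 and 255 CPM in 1× glucose. Log2 fold changes lay between −0.20 and 0.52, the highest being that of *Hoxd13*, at 0.609, 0.122 and 0.636 CPM. *Hoxb9* was at 468, 299 and 279.6 CPM in 3× glucose, *Hoxc8* at 189, 84.2 and 66.7 CPM and *Hoxa9* at 26.5, 13.7 and 11.6 CPM. In these 3 genes the passage 13 library was again the highest of its group.

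**Figure D4:**
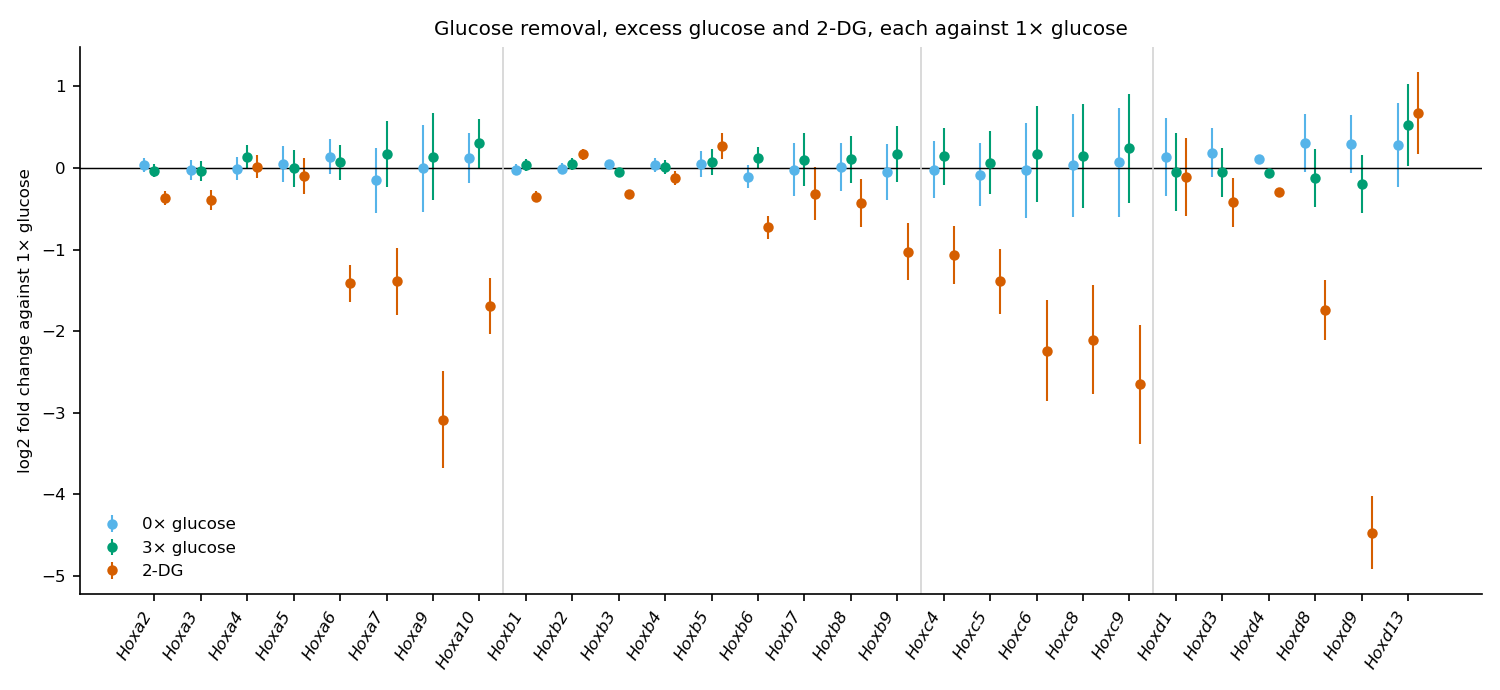
Log2 fold change against 1× glucose (y axis) of each tested Hox gene (x axis, by cluster) for 0× glucose, 3× glucose and 2-DG, with bars of 1 SE. The 0× and 3× glucose points lie between −0.20 and 0.52, and the 2-DG points reach −4.47 for *Hoxd9*.

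Passage was a large source of variation in the Hox genes. Fitted together with treatment, 23 of the 28 differed between passages by edgeR's quasi-likelihood test, where 46.2% of all genes did. In 13 of them passage 13 was above both other passages (21.2% of all genes) and in 8 it was below both (21.7%). The passage 13 library was the highest in each of the 4 treatments for 9 genes (18.7% of all genes) and the lowest in each for 7 (18.2%). The 5 genes not called were *Hoxa10*, *Hoxb3*, *Hoxb4*, *Hoxd4* and *Hoxd13*. Each passage holds 1 library per treatment, and passage, plating and day of culture cannot be told apart. The 4 treatments of a passage stood as its replicates, so these p-values do not measure the spread between independent cultures of a passage.

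The direction of the passage difference was not the same in every cluster. All 5 tested HoxC genes were highest at passage 13 in each of the 4 treatments, and the 4 called HoxD genes were below both other passages in the fit. Among genes of groups 6 to 9, the fitted level at passage 13 was the highest for 3 of 3 in HoxA, 4 of 4 in HoxB and 3 of 3 in HoxC, and the lowest for 2 of 2 in HoxD. In 1× glucose the passage 13 level was 3.31 times the mean of passages 15 and 16 for *Hoxc9*, 3.06 times for *Hoxc8*, 2.68 times for *Hoxa9* and 1.78 times for *Hoxb9*, but 0.623 times for *Hoxd9* and 0.616 times for *Hoxd8*. The adjusted p-values for passage were 0.000135, 7.13e-05, 0.00803, 7.37e-06, 0.0327 and 5.38e-05 in that order. Paralogs of group 9 thus lay on both sides of 1. Some passage calls rested on few libraries: with 1 of the 12 libraries left out at a time, that of *Hoxa3* was lost in 9 cases, *Hoxa6* in 9, *Hoxa4* in 8, *Hoxb1* in 7, *Hoxd9* in 7, *Hoxa2* in 4, and *Hoxa9* and *Hoxb2* in 1 each.

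Among the 3′ genes, *Hoxd1* at passage 13 was at 0.420 times the mean of the other passages in 1× glucose (edgeR adjusted p for passage = 7.25e-06) and *Hoxd3* at 0.554 times (3.7e-06). *Hoxa5* and *Hoxb5*, the paralogs of group 5 in HoxA and HoxB, were at 0.689 and 0.737 times, whereas their paralog *Hoxc5* was at 2.26 times. *Hoxb3* was at 1.04 times (edgeR adjusted p for passage = 0.588). The passage folds were smaller with 2-DG for several genes, at 1.66 for *Hoxc8*, 1.48 for *Hoxc9* and 1.05 for *Hoxa7*, where 1× glucose gave 3.06, 3.31 and 2.26. For *Hoxa9* the direction was reversed, at 0.702 with 2-DG and 2.68 in 1× glucose. For *Hoxb9* the folds were 1.63 with 2-DG and 1.78 in 1× glucose. The passage difference was larger with 2-DG for *Hoxd8*, at 0.455 beside 0.616 in 1× glucose, and for *Hoxd9*, at 0.217 beside 0.623. The 2-DG library of *Hoxd9* at passage 13 held 4 counts. Whether the passage difference itself differed between treatments was not tested, since each treatment has 1 library per passage.

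**Figure D5:**
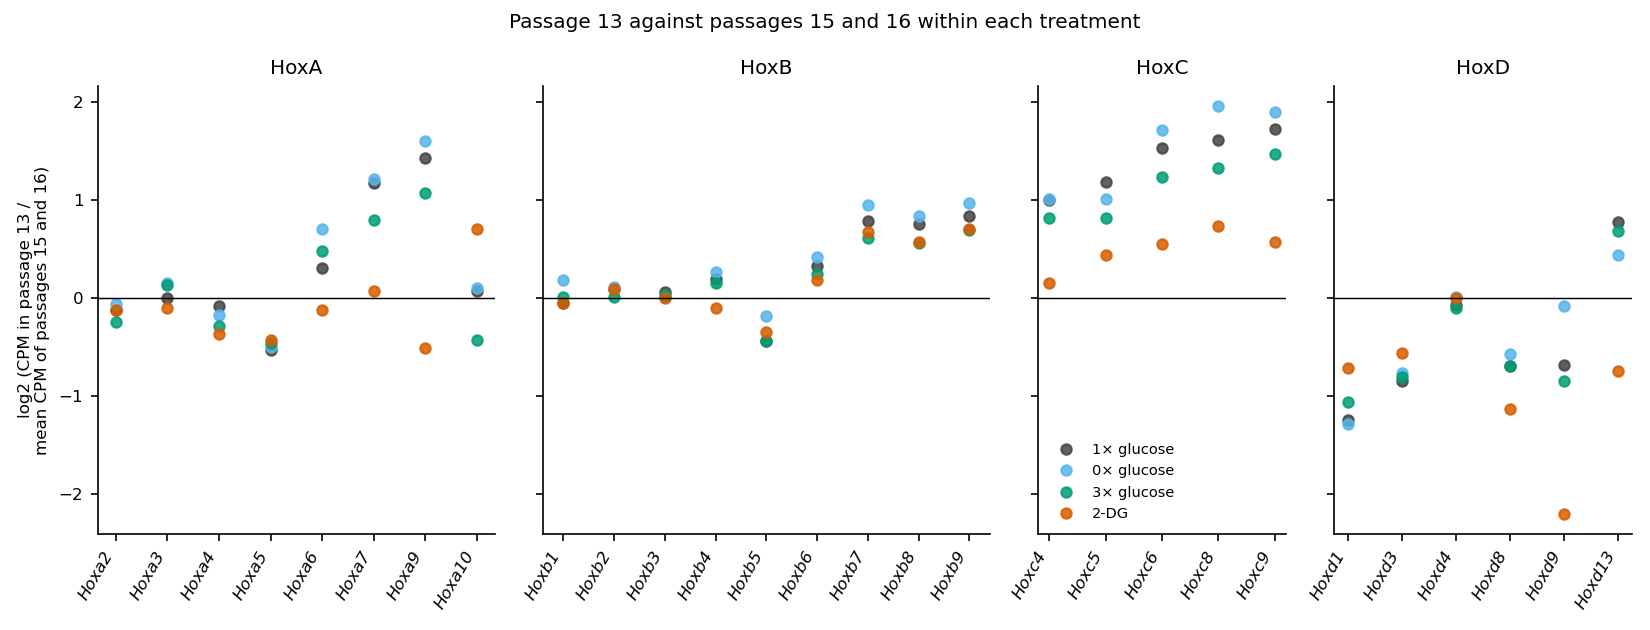
Log2 ratio of the passage 13 level to the mean of passages 15 and 16 (y axis) for each tested Hox gene (x axis), 1 panel per cluster, with 1 point per treatment. HoxC points lie above 0 in all 4 treatments, the HoxD points of *Hoxd1*, *Hoxd3* and *Hoxd8* lie below 0 in all 4, and *Hoxa9* lies above 0 in 3 treatments and below 0 with 2-DG.

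Other genes moved with passage too. The 5 somite markers were all lowest at passage 13, where their summed level was 97.4 to 255 CPM over the 4 treatments, against 558 to 816 CPM at passage 15 and 345 to 478 CPM at passage 16. Of the 6 neural markers, 5 differed between passages and had their highest fitted level at passage 13, with a summed level of 156.5 to 314 CPM against 71.4 to 156 and 57.4 to 131 CPM. Of 6 primitive streak markers 6 were called, 4 with their highest fitted level at passage 13 and 1 with its lowest. Pluripotency had 5 of 6 called (4 and 1), endoderm 5 of 5 (1 and 4) and presomitic mesoderm 3 of 5 (0 and 2). Endothelium and blood had 4 of 4 (1 and 3), neural crest 2 of 3 (0 and 2) and feeder fibroblast 3 of 4 (0 and 3). Among all genes 46.2% were called, 21.2% with passage 13 above both other passages and 21.7% with it below both. The part of these markers in the passage result was not tested.

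Of the factors that act on Hox clusters, the 3 Cdx genes did not pass the test between 2-DG and 1× glucose. *Cdx2* was at 338, 135 and 148 CPM in 1× glucose and at 156.5, 96.6 and 121 CPM with 2-DG (log2 fold change −0.73, SE 0.48, edgeR adjusted p = 0.333, 0.007 with the replicate block). *Cdx4* was at 112, 40.9 and 50.3 CPM and at 20.1, 17.6 and 35.8 CPM (log2 fold change −1.47, SE 0.55, edgeR adjusted p = 0.0902, 0.00835 with the block). Both were lower with 2-DG at each passage, most of all at passage 13. *Cdx1* was at 203, 135 and 201.5 CPM and at 216, 171 and 239 CPM (log2 fold change 0.22, SE 0.22, edgeR adjusted p = 0.564, 0.00311 with the block). All 3 differed between passages and were at their 1× glucose maximum at passage 13, *Cdx1* by a narrow margin over passage 16. In the fit over all treatments, passage 13 was above both other passages for 2 of the 3, *Cdx2* and *Cdx4*. *Cdx1* was slightly higher at passage 16 there, by 0.033 on the log2 scale. Among all genes, 21.2% were called with passage 13 above both other passages.

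Among 9 tested TALE homeodomain genes, whose proteins bind DNA together with Hox proteins, 1 was called lower with 2-DG, *Pknox1* (log2 fold change −0.43, edgeR adjusted p = 0.0133, the order also used for the next genes), and 2 higher, *Meis3* (0.56, 0.0197) and *Pknox2* (0.52, 0.00236). Of 9 genes for the axial signals, 2 were lower, *Wnt3a* (−2.72, 0.00634) and *T* (−1.57, 0.0136), both of the growing tail end, and 1 was higher, *Gdf11* (0.40, 0.0219), a signal for the trunk-to-tail transition. Of 10 genes of retinoic acid metabolism and reception, 1 was lower, *Cyp26a1* (−1.44, 0.028), which degrades retinoic acid. Of 17 genes for Polycomb and Trithorax proteins and the insulator protein Ctcf, 1 was lower, *Ezh2* (−0.26, 0.0152), the methyltransferase of Polycomb complex 2, and 0 were higher. With the replicate block the lower and higher calls were 1 and 3 for the TALE genes, 5 and 2 for the axial signals, 2 and 4 for retinoic acid and 3 and 4 for the chromatin list, beside 20.2% lower and 21.1% higher among all genes. Without the block, 8.51% of all genes were called lower and 9.12% higher.

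Noncoding RNAs of the Hox clusters were counted too: 16 of 17 were listed and 9 tested. *Hoxaas2*, an antisense RNA of HoxA, was at 16.8, 16.4 and 15.9 CPM in 1× glucose and at 9.46, 8.58 and 10.1 CPM with 2-DG (log2 fold change −0.80, SE 0.097, edgeR adjusted p = 0.000616). *Hotairm1*, transcribed from the 3′ end of HoxA, was at 13.3, 14.8 and 16.2 CPM and at 27.0, 22.1 and 24.03 CPM (log2 fold change 0.72, SE 0.15, edgeR adjusted p = 0.00938). The groups of both RNAs were apart, in opposite directions, and neither was called between passages, at 0.317 and 0.142. With the replicate block 4 of the 9 were lower and 1 higher (20.2% and 21.1% of all genes), and the microRNA genes *Mir196a-2* and *Mir196b* were at 0 in all libraries. The libraries were made with a directional (strand-specific) kit, but whether the counting used strand is not stated. Reads of an antisense RNA and its overlapping Hox gene therefore cannot be told apart. *Hoxa3* also overlaps *Hoxa4*, *Hoxa5* and *Hoxa6* in its RefSeq span, *Hoxb3* overlaps *Hoxb4*, and *Hoxd3* overlaps *Hoxd4*. Their protein-coding GENCODE exons share 0 bases. Overlap between exons of the RefSeq transcripts that were counted was not measured, so the split of reads between these genes is uncertain.

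Of 10 genes tested beside the Hox clusters, 2 were lower with 2-DG (8.51% of all genes), 1 higher (9.12%) and 7 not called. With the replicate block 5 were lower and 1 higher, with *Ttll6*, *Mtx2* and *Lnpk* gained at adjusted p-values of 0.044, 0.00884 and 0.0152, beside 20.2% lower and 21.1% higher among all genes. *Evx1*, the homeobox gene next to the 5′ end of HoxA and a gene of the posterior primitive streak, was at 93.6, 37.0 and 49.5 CPM in 1× glucose and at 6.68, 7.27 and 16.01 CPM with 2-DG (log2 fold change −2.59, SE 0.53, edgeR adjusted p = 0.00812). *Skap1*, beside HoxB, was near the detection limit at means of 1.53 and 0.409 CPM (log2 fold change −1.90, edgeR adjusted p = 0.0241). *Skap2*, beside the 3′ end of HoxA, was slightly higher, at 112.7 and 128 CPM (log2 fold change 0.18, edgeR adjusted p = 0.0193). *Evx1* thus moved in the direction of *Hoxa9* and *Hoxa10*, and *Skap2* in the other.

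Some markers of the cell types a gastruloid holds also moved with 2-DG, beside 8.51% of all genes called lower and 9.12% higher. Of 6 primitive streak markers, 3 were lower, *T*, *Wnt3a* and *Mixl1* (log2 fold change −3.89, edgeR adjusted p = 0.00032), and the summed level was 401 to 868 CPM in 1× glucose and 243 to 315 CPM with 2-DG. Of 6 neural markers, 3 were higher, *Sox1* (log2 fold change 1.84, edgeR adjusted p = 0.0185), *Irx3* (1.90, adjusted p = 0.00492) and *Pax6* (1.29, adjusted p = 0.0464), and 1 was lower, *Nkx6-1* (−1.43, adjusted p = 0.00516), with a summed level of 64.5 to 175 and 131 to 314 CPM. Presomitic mesoderm had 1 of 5 lower, *Hes7* (−0.74, 0.00508), in sums of 1173 to 1488 and 804 to 1259 CPM, and endoderm 1 of 5 lower, *Trh* (−1.26, 0.0366), in sums of 40.6 to 199 and 39.7 to 85.6 CPM. Of 6 pluripotency markers 1 was higher, *Tfcp2l1* (1.05, 0.0244), in sums of 36.9 to 51.9 and 58.4 to 72.1 CPM. Without the block, none of the somite (5 tested), endothelium and blood (4), neural crest (3) or feeder fibroblast (4) markers was called, in sums of 97.4 to 674, 1.71 to 8.73, 6.76 to 17.5 and 11.1 to 15.02 CPM in 1× glucose and 255 to 590, 1.25 to 1.55, 6.82 to 10.9 and 10.2 to 14.01 CPM with 2-DG. With the replicate block, the lower and higher calls were 4 and 0 for the primitive streak, 1 and 5 for neural, 3 and 0 for presomitic mesoderm, 3 and 1 for endoderm and 0 and 4 for pluripotency. They were 1 and 0 for the somite, 3 and 0 for endothelium and blood, 2 and 0 for neural crest and 2 and 1 for feeder fibroblast markers, beside 20.2% lower and 21.1% higher among all genes. The part of these markers in the Hox result was not tested.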

How the data were processed

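Estimated counts per RefSeq transcript were deposited by the authors, 1 table per library, as whole numbers. They came from Illumina reads of pooled gastruloids, with libraries made by a directional kit. Reads were trimmed with Trim Galore, aligned to mm10 with HISAT2, cleared of PCR duplicates with Picard and quantified with StringTie. Versions are not given in the sources used here. No normalization had been applied. Counts were summed per gene symbol with RefSeq names (GRCm38.p6, found for each of the 120312 transcripts). A count was recorded for 26382 of 38911 genes. Libraries held 31902471 to 45956080 counts. Tables of the authors' own comparisons (means, fold changes and p-values per transcript) were not used. Among transcripts above a minimum mean count, at most 9.67% had identical values in any pair of libraries.

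All 12 libraries were fitted by group in edgeR 4.0.16 (R 4.3.3; TMM, filterByExpr, glmQLFit, glmQLFTest), leaving 16966 genes, with Benjamini-Hochberg adjustment and a two-sided threshold of 0.05. Passage was tested with group and passage as additive terms. The common dispersion was 0.0316, and 0.0063 with passage as a block. Passage numbers pair the libraries, since the labels give a shared passage. Deviations from group means correlated between 0.0963 and 0.623 in the 18 same-passage pairs and between −0.44 and 0.191 in the 36 others. The median log2 fold change over all genes was at most 0.01 under every scaling, so no shift was removed. The fit by group was tested on simulated data with known changes, at the common dispersion and with no passage effect. The passage block, the passage test and DESeq2 were not tested in that way.

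Alternatives were the passage block, median-of-ratios size factors, no filter, a mean of at least 100 counts, DESeq2 1.42.0, each gene's most abundant transcript, only the groups compared, and leaving out each library. Levels between genes are per kilobase of GENCODE exon. The members and lists were chosen with earlier results of these data known. All 38 Hox genes were named. From the lists (Cdx, TALE, axial signals, retinoic acid, Polycomb with Trithorax and Ctcf, noncoding RNAs, neighbours, cell type markers), called genes were named, at most 5 per list, and the Cdx genes in any case. Results for 1 further list are not reported here. Promoters followed the largest change per cluster, except those of *Hoxa7* and *Hoxb1*.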

Additional observations from a re-analysis of the deposited data

How the results depend on the processing

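With passage as a replicate block the Hox genes called rose from 14 to 23 against 1× glucose and from 14 to 23 against 0× glucose, and the calls over all genes from 2990 to 7001 and from 3207 to 7305. With each gene's most abundant transcript alone, 7 and 6 Hox genes were called in these comparisons and 11 in place of 23 between passages, with 653, 775 and 1879 genes in all, the last in place of 7840. The share of counts in that transcript varied between libraries, from 1.88% to 63.0% for *Hoxb3* and from 0% to 78.0% for *Hoxd8*, and calls of both were lost only in that setting. Leaving out 1 library gave 9 to 17 Hox genes against 1× glucose, with 9 each without the 2-DG library of passage 13 or 15, and 9 to 16 against 0× glucose, with 9 without the 2-DG library of passage 15. It gave 17 to 23 Hox genes between passages, and 1734 to 3035 and 2051 to 3429 genes in all for the 2-DG comparisons. With only the groups compared, 1896 genes in all were called against 1× glucose and 14 Hox genes. DESeq2 called 17 Hox genes in either 2-DG comparison. Between 0× and 1× glucose 2 genes in all were called, 11 by DESeq2 and 0 with only the groups compared. Between 3× and 1× glucose 0 were called, and 2 both by DESeq2 and with the most abundant transcript. No Hox gene was called in either glucose comparison under any alternative run. Of the 14 genes lower than in 1× glucose, 7 passed under all 19 alternatives: *Hoxa6*, *Hoxa9*, *Hoxa10*, *Hoxb1*, *Hoxb6*, *Hoxd4* and *Hoxd9*. No called value changed sign. Values called neither before nor after changed sign in 56 of 530 cases for 0× glucose, 53 for 3× glucose, and 8 and 5 for 2-DG against 1× and 0× glucose. Apart from the calls named with the block, it changed no other Hox call. Depth limited *Hoxd9* with 2-DG (4 to 25 counts), *Hoxa10*, *Hoxd13* and the 10 untested genes. The causes of these changes were not tested.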
